A study of Mus musculus with 44 samples.

Results

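The fibroblasts described here are the CD26-negative (CD26-) cells of mammary tumors and control glands. They came from mice that had received mammary tissue of the WB1P model, and the comparison was with the CD26- normal fibroblasts (NFs) of mice that had received control mammary tissue. Members were chosen from the sample labels. The 2 sorted populations without CD26, named EN1+ and double- (-/- in the labels), were taken, and their gene counts were added up for each mouse. This gave 15 libraries from 8 mice, 5 of them WB1P and 3 of them control, out of 44 libraries from 13 mice in the series. Libraries of the WB1P-Myc mice were left out. WB1P #10 had an EN1+ library and no double- library, and each of the other 7 mice had both.

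The study asked where cancer-associated fibroblasts (CAFs) come from and how CD26+ and CD26- NFs change when a tumor grows beside them. All recipients were female mice carrying En1-Cre and mTmG, bred from En1-Cre mice by 2 generations of crosses to an mTmG line on FVB/n, and were about weaning age at transplantation. mTmG is a reporter that turns from membrane tdTomato to membrane GFP in cells with a history of En1 expression. Donor fragments were placed in the fourth mammary gland, whose own fat pad and ducts were left in place, and tumors were collected at end stage. WB1P donors carried WapCre, Brca1 F/F and Trp53 F/F, alleles from which Cre driven by the milk protein promoter Wap removes Brca1 and Trp53 in mammary epithelium. The floxed alleles were in the donor tissue and not in the host, in the tumor and in the control mice. Control mice, titled wildtype in the labels, received mammary tissue of donors without WapCre, and the donors differed in their floxed alleles as well as in WapCre. Fibroblasts of both groups were sorted after collagenase digestion as cells without EpCAM, CD49f, CD31 and CD45, and GFP (the En1 lineage) and CD26 antibody staining then divided them. No positive fibroblast marker was in this gate, so pericytes, Schwann cells and other stromal cells without these 4 proteins could pass it. The sources used here do not say whether the double- sort was also gated on tdTomato, so donor cells without the reporter could be in it. Each control label carried a pair of numbers (82/83, 49/52 and 44/46) and was counted as 1 mouse.

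Resting mammary fibroblasts keep up the interstitial matrix with collagens, decorin and lumican and serve as a source of growth factors for ducts and fat. In a wound or a tumor they can turn into myofibroblasts, which build contractile bundles of alpha smooth muscle actin, lay down and crosslink collagen, and release proteases that cut the matrix again. Myofibroblastic CAFs are the form in which contraction and matrix genes dominate, and inflammatory CAFs are the form in which cytokines do. CD26, encoded by Dpp4, is a surface peptidase of fibroblasts that lie beneath epithelia and in the outer layers of connective tissue.

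Values below are counts per 1000000 (CPM) of each mouse's summed libraries, scaled by the TMM method. They stand in a fixed order, which is 82/83, 49/52 and 44/46 for the control mice and #10, #93, #12 R4, #14 and #35 for the WB1P mice. Fold changes are log2 values of WB1P against control with a standard error (SE). The SE was derived from the test below, as the size of the log2 fold change over the square root of its F statistic. It is not a separate estimate of spread. The false discovery rate (FDR) is the Benjamini-Hochberg adjusted p of edgeR's quasi-likelihood test over all genes tested. A gene is said to have risen or fallen where its FDR was under 0.05, and to be called where its log2 fold change was also beyond 2 in size.

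Libraries held 11045612 to 14478346 counts, with a median of 12921353. In a principal component analysis of the 500 most variable genes, the first component took up 82.7% of the variance and separated the groups, with the control mice between -66.0 and -64.1 and the WB1P mice between 35.2 and 41.8. The second component, with 6.2%, set WB1P #10 apart from the other mice. Dpp4, the gene of the sorted antigen, was low in both groups, at 1.76, 7.15 and 5.98 CPM in the control mice and 0.619, 6.58, 1.75, 9.08 and 7.56 CPM in the WB1P mice, and the groups overlapped (log2 fold change 0.05, SE 0.76, FDR 0.963). En1, the lineage gene behind the GFP label, was measured at 5.79, 8.55 and 6.58 CPM in the control mice and 13.0, 36.4, 13.9, 20.0 and 11.8 CPM in the WB1P mice, and every WB1P mouse lay above every control mouse (log2 fold change 1.45, SE 0.40, FDR 0.0211, with an FDR of 0.0785 without control 44/46 and 0.0762 without control 82/83). Pdgfra, a receptor of most tissue fibroblasts, was measured at 1484, 1498 and 1446 CPM in the control mice and 154, 544, 331, 639.9 and 482 CPM in the WB1P mice. All WB1P mice were below the control mice in Pdgfra (log2 fold change -1.78, SE 0.38, FDR 0.00706), and WB1P #10 was the lowest. For Pdgfrb, the receptor shared by fibroblasts and pericytes, the 2 groups overlapped and the log2 fold change was 0.48 (FDR 0.263). Genes of the excluded surface proteins stayed low but were not at 0. Epcam rose from 6.68 ± 3.14 to 21.6 ± 14.3 CPM (SD, n = 3 control and n = 5 WB1P mice, here and below; log2 fold change 1.69, FDR 0.0411, with an FDR of 0.0654 to 0.123 on leaving out any one of WB1P #14, WB1P #35, control 49/52 or control 82/83). Itga6 (CD49f) rose from 10.6 ± 5.98 to 30.2 ± 14.4 CPM (log2 fold change 1.51, FDR 0.0316, with an FDR of 0.0538 to 0.105 on leaving out any one of WB1P #10, WB1P #35, control 49/52 or control 82/83). Pecam1 (CD31) fell from 12.1 ± 3.49 to 3.13 ± 0.875 CPM (log2 fold change -1.94, FDR 0.00102), and Ptprc (CD45) was at 1.19 ± 0.447 CPM in NFs and 3.27 ± 3.80 CPM in CAFs (log2 fold change 1.46, FDR 0.222).

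Of 15331 genes tested, 976 were called higher in CD26- CAFs, which is 6.37% of the genes, and 663 were called lower, which is 4.32%. At FDR alone, 2755 genes (18.0%) rose and 2815 (18.4%) fell, and the median log2 fold change of all genes was 0.0. These 2 shares are the background against which the counts of the gene lists below are read. The mice of the groups did not overlap for 930 of the 976 genes called higher and for 626 of the 663 genes called lower. Over all genes tested, 19.4% were without overlap and higher in WB1P, and 19.2% were without overlap and lower. The libraries are of sorted cells in bulk, so fewer cells of a type and less RNA per cell cannot be told apart in any value given here.

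**Figure D1:**
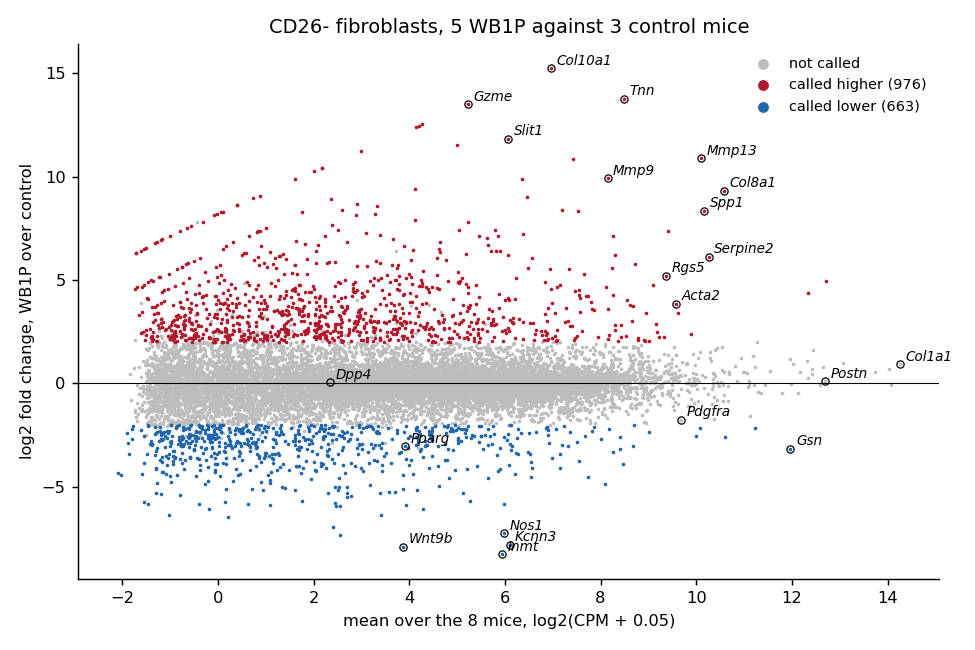
Each point is 1 of the 15331 genes tested, with its mean over the 8 mice, log2(CPM + 0.05), on the x axis and its log2 fold change, WB1P against control CD26- fibroblasts, on the y axis. Red points are the 976 genes called higher and blue points the 663 called lower, circles mark labelled genes, and the fitted value of a gene with no count in the control mice depends on the prior count of the fit.

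The largest rises were in genes that NFs hardly expressed. Tnn encodes tenascin-W, a matrix glycoprotein of developing bone and of tumor stroma, and was measured at 0, 0.114 and 0 CPM in the control mice and 620.4, 848, 251, 608 and 544 CPM in the WB1P mice. Its summed counts per library size were 15700 times higher in the WB1P mice (95% counting interval 5360 to 75900, FDR 2.40e-05), as 3 counts were found in all control mice together. These 3 counts came from control 49/52, without which the value was at least 10700 times, and it was 10000 times without control 44/46. Col10a1, the collagen X gene of hypertrophic cartilage, had no count in any control mouse and reached 167, 44.2, 648, 128 and 18.8 CPM in the WB1P mice. Against the 3 counts that a total of 0 still allows, this was at least 5830-fold higher (FDR 0.00530), or at least 3740-fold without control 44/46 and 2160-fold without WB1P #12 R4, and the WB1P mice differed widely among themselves, with #12 R4 the highest. Slit1, a guidance ligand of Robo receptors known from axons, was at 0.0367, 0.0378 and 0 CPM in the control mice and at 101, 83.2, 147, 76.6 and 129 CPM in the WB1P mice. Its ratio was 4600 (95% counting interval 1270 to 38000, FDR 7.25e-06), and 2950 without control 44/46. Intervals from counts cover counting error only.

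Further rises of this size were in Mmp13 and Mmp10, a collagenase and a stromelysin that are given with the other metalloproteinases, and in 5 secreted proteases of mast cells and cytotoxic lymphocytes. These 5 genes lie within 321 kb of chromosome 14, between 55941451 and 56262260 (GRCm38), in the cluster that runs from the mast cell chymase Cma1 to granzyme B (Gzmb). Of the 15 protein-coding genes there, 11 had no count in any control mouse. Of these 11, 5 had a mean of at least 10 CPM in the WB1P mice, while others stayed near 0 there, such as Gzmf with 1 count and Mcpt2 with 2. Over all genes, 32 of the 976 called higher had no count in any control mouse. That count is of called genes only, whereas the 15 genes of the interval were taken whether called or not. The share of all protein-coding genes without a control count was not taken. The interval was chosen for the 5 genes named here. Gzme had 50.1, 82.8, 46.4, 24.8 and 96.6 CPM in the WB1P mice, at least 1730-fold more than the control mice allow (FDR 0.000287). Gzmd had 20.8, 49.1, 21.3, 13.8 and 47.8 CPM, at least 888-fold more, and Gzmc had 37.2, 36.4, 15.1, 26.4 and 33.0 CPM, at least 802-fold more. Each of these 3 granzymes was found in all 5 WB1P mice. Without control 44/46 the bounds were 1110-fold for Gzme, 569-fold for Gzmd and 514-fold for Gzmc. Mcpt8, a protease of basophils, had 3.56, 17.1, 9.65, 5.41 and 27.8 CPM and was at least 391-fold higher, or 250-fold without control 44/46. Mcpt1, a mucosal mast cell protease, had 112, 17.0, 1.95, 1.43 and 9.13 CPM, at least 549-fold more, and most of it came from WB1P #10 (FDR 0.0266, with an FDR of 0.0599 to 0.0662 on leaving out any one of control 44/46, control 49/52 or control 82/83). The bound was 352-fold without control 44/46 and 203-fold without WB1P #10. Further genes of the cluster, chosen after their values were seen, also had counts. Gzmb was measured at 0.0733, 0.0757 and 0.266 CPM in the control mice and 5.11, 3.87, 0.477, 0.582 and 1.73 CPM in the WB1P mice (log2 fold change 3.99, SE 1.02, FDR 0.0157, and 4.87 without control 44/46, with an FDR of 0.0567 without control 49/52 and 0.0577 without control 82/83). Cma2, a chymase, had 1 count in the control and 125 in the WB1P mice, and Mcpt9, a mast cell protease, had 0 and 43. The genes of the cluster are paralogs, and reads could be shared between near-identical members.

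Other genes of cells that use these proteases were set beside them, chosen after their values were seen. Prf1, the pore protein of cytotoxic lymphocytes, was measured at 0.183, 0.114 and 0 CPM in the control mice and 0, 0.0451, 0, 0.0447 and 0 CPM in the WB1P mice. Ncr1, a receptor of natural killer cells, was at 0, 0 and 0 CPM in the control mice and 0, 0.0451, 0, 0 and 0 CPM in the WB1P mice. Gzma, a granzyme encoded on another chromosome, was at 0.147, 0.0378 and 0.0996 CPM in the control mice and 0.155, 0, 0.0397, 0 and 0 CPM in the WB1P mice. These 3 genes were at or near 0 in all mice. A total of 0 counts over a group allows up to 0.0358 CPM in the control mice and 0.0275 CPM in the WB1P mice. Cpa3, the mast cell carboxypeptidase, was at 2.13, 1.17 and 1.20 CPM in the control mice and 0, 1.26, 0, 0 and 0 CPM in the WB1P mice. Tpsb2, a mast cell tryptase, was at 0.770, 0.832 and 0.764 CPM in the control mice and 0, 1.13, 0, 0 and 0 CPM in the WB1P mice. Mcpt4, a connective tissue mast cell chymase within the same cluster, was at 2.42, 1.21 and 1.59 CPM in the control mice and 0.852, 2.21, 0.0397, 0 and 0.188 CPM in the WB1P mice. WB1P #10, #12 R4, #14 and #35 had no count of Cpa3 or Tpsb2 and had Gzme, Gzmd and Gzmc at the levels given above. Which cells the counts of the protease cluster came from was not tested.

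The largest falls included enzymes, an ion channel and secreted ligands. Inmt, a methyltransferase of resident stromal cells, was measured at 58.4, 289 and 145 CPM in the control mice and 0.0774, 0.135, 0.0397, 0.0447 and 2.03 CPM in the WB1P mice. No WB1P mouse came near the control mice (log2 fold change -8.28, SE 1.00, FDR 0.000551, and -11.03 without WB1P #35 and -7.59 without control 49/52). Kcnn3, a calcium-activated potassium channel, was at 222, 62.0 and 261 CPM in the control mice and 0.310, 1.08, 0.318, 0.403 and 1.69 CPM in the WB1P mice (log2 fold change -7.82, SE 0.65, FDR 0.000115). Nos1, the neuronal nitric oxide synthase, was at 162, 113 and 226 CPM in the control mice and 1.16, 0.766, 0.477, 0.403 and 2.56 CPM in the WB1P mice, again without overlap (log2 fold change -7.26, SE 0.55, FDR 7.10e-05, and -7.97 without WB1P #35). Wnt9b, a Wnt ligand of epithelium and mesenchyme, had 79.6, 2.16 and 33.7 CPM in the control mice and 0.155, 0.270, 0.318, 0.0447 and 0 CPM in the WB1P mice (log2 fold change -7.90, SE 1.14, FDR 0.00120, and -6.81 without control 82/83), and its control mice were themselves spread over a wide range, with 49/52 the lowest. The same control mouse was the lowest for Mgat5b (-7.32), a glycosyltransferase gene, Hs3st6 (-6.94; -8.40 without WB1P #12 R4 and -6.29 without control 82/83), a heparan sulfate sulfotransferase gene, and Ism2 (-6.38), Nxph3 (-6.07), Rnf182 (-5.94) and Unc80 (-5.94), the log2 fold changes of which had FDR values between 0.000115 and 0.00139.

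**Figure D2:**
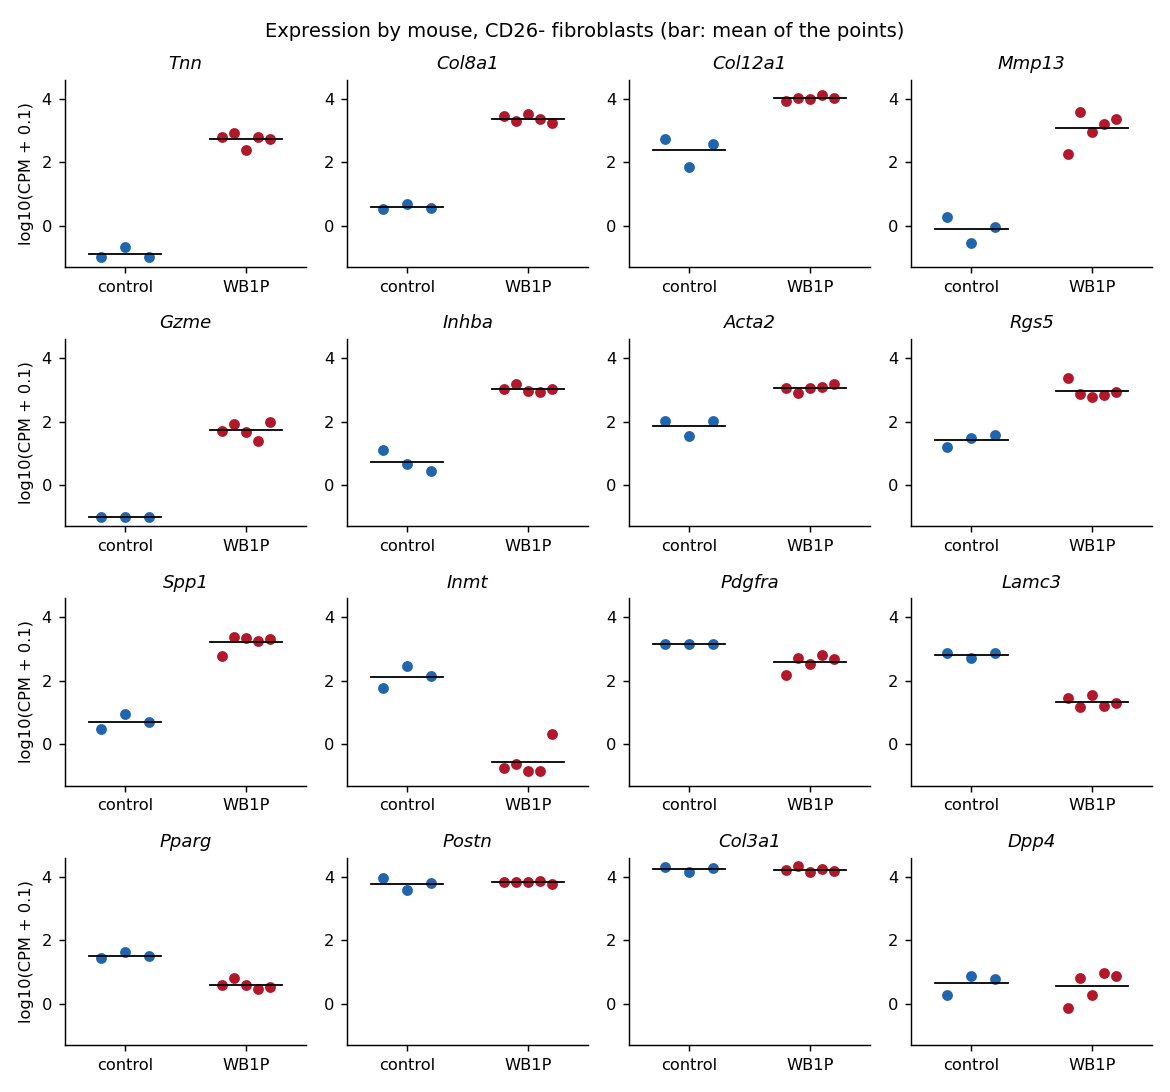
The expression of 16 genes, log10(CPM + 0.1), is plotted for each of the 3 control mice (blue) and 5 WB1P mice (red), 1 point per mouse, with a bar at the mean of the points. Tnn, Col8a1 and Gzme stand far apart by group, Inmt and Lamc3 are lower in all WB1P mice, and Postn, Col3a1 and Dpp4 overlap.

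Genes were then grouped by function, in lists of pathways, matrix components and cell markers.

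**Figure D3:**
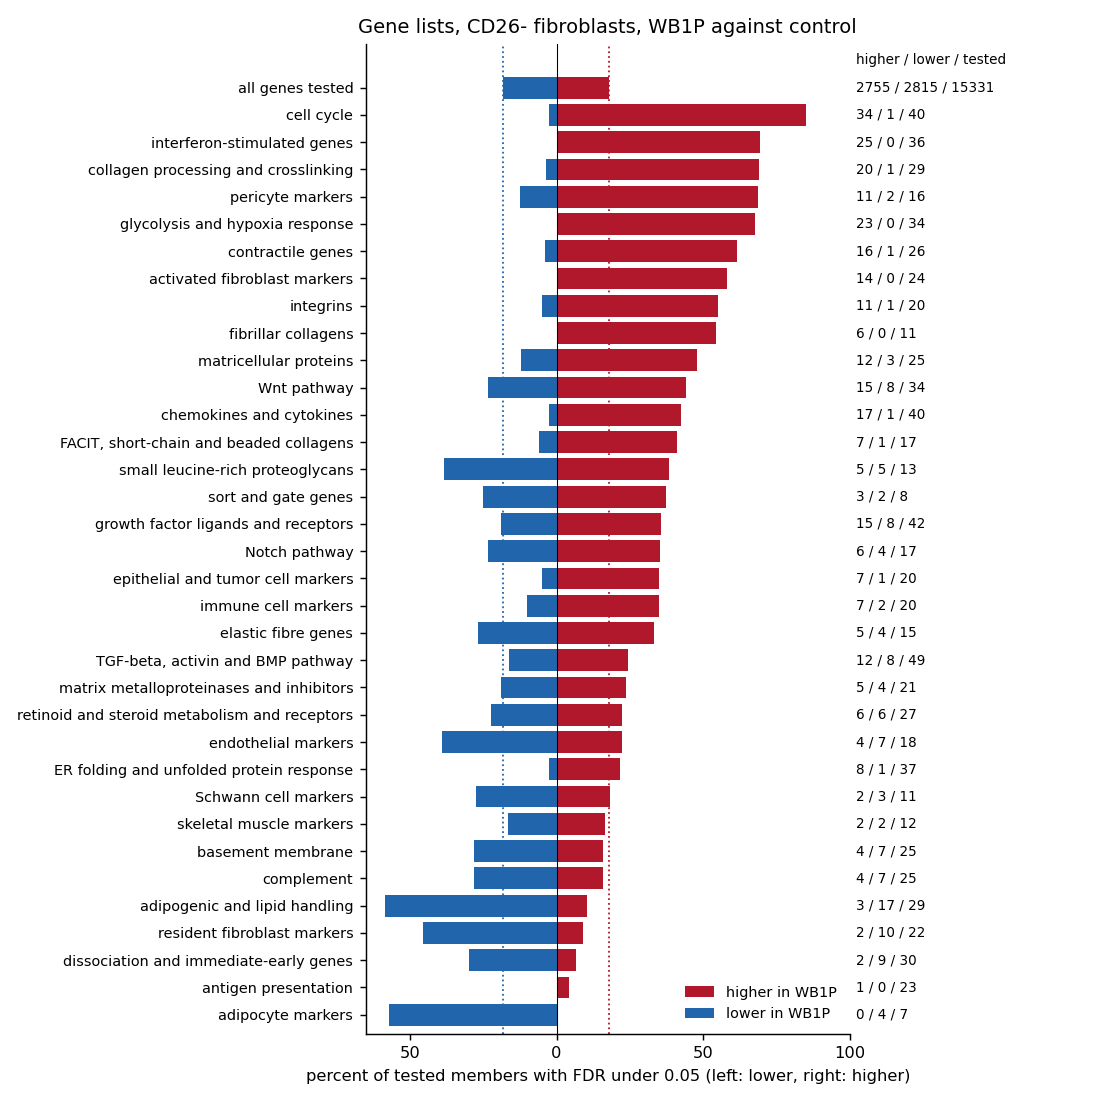
For each gene list, the bars give the percentage of tested members that rose (right, red) or fell (left, blue) at FDR under 0.05 in WB1P CD26- CAFs, the dotted lines give the shares over all 15331 genes, 18.0% and 18.4%, and the counts stand at the right. Cell cycle genes reach furthest to the right, and adipogenic genes furthest to the left.

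Among markers of activated fibroblasts, 14 of 24 rose and the other 10 did not pass the test, with a median log2 fold change of 3.31 (0.0 over all genes). Col8a1, a short-chain network collagen, was measured at 3.26, 4.81 and 3.45 CPM in the control mice and 2961, 1996, 3207, 2257 and 1774 CPM in the WB1P mice. No mouse of one group came near those of the other (log2 fold change 9.31, SE 0.37, FDR 5.17e-06). Ltbp2, a matrix protein of microfibrils, was at 2.93, 4.35 and 3.22 CPM in the control mice and 456, 537, 608, 255 and 584 CPM in the WB1P mice (log2 fold change 7.12, SE 0.40, FDR 2.00e-05). Sulf1, which trims sulfate groups off heparan sulfate, rose from 47.4 ± 12.1 to 629 ± 131 CPM (log2 fold change 3.73, SE 0.26, FDR 4.97e-05). Members without a call included markers that are often used for CAFs. Postn (periostin) was at 8992, 3808 and 6278 CPM in the control mice and 6633, 6933, 7000.2, 7431 and 5990.3 CPM in the WB1P mice, and the groups overlapped (log2 fold change 0.10, SE 0.26, FDR 0.791). Fn1 (fibronectin) was at 15209, 5468 and 11153 CPM in the control mice and 13651, 16383, 17037, 16393 and 14505 CPM in the WB1P mice, also with overlap (log2 fold change 0.56, SE 0.30, FDR 0.175, with an FDR of 0.0493 without control 82/83). In both genes the highest and the lowest control mice were 82/83 and 49/52, and the WB1P mice were closer together than the control mice.

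Of the markers of resident fibroblasts, 2 of 22 tested members rose, 10 fell (45.5%) and the median was -0.89. Gsn, which encodes the actin-severing protein gelsolin, was measured at 7229, 14306 and 5576 CPM in the control mice and 597, 1628, 847, 908 and 1011 CPM in the WB1P mice and fell in all WB1P mice (log2 fold change -3.18, SE 0.38, FDR 0.000540). Abca8a, a lipid transporter gene, was at 857, 843 and 844 CPM in the control mice and 22.1, 53.9, 129, 36.9 and 42.6 CPM in the WB1P mice (log2 fold change -3.89, SE 0.50, FDR 0.000718). Scara5, a ferritin receptor of stromal progenitors, was at 207, 794 and 331 CPM in the control mice and 16.4, 49.6, 14.2, 29.4 and 54.8 CPM in the WB1P mice (log2 fold change -3.75, SE 0.56, FDR 0.00148, and -3.02 without control 49/52). Col15a1, a marker of fibroblasts near basement membranes, was at 2872 ± 446 CPM in NFs and 2711 ± 676 CPM in CAFs (log2 fold change -0.08, FDR 0.796). Sbsn, another marker of the list, went against it and rose from 1.74 ± 0.460 to 5.52 ± 1.84 CPM (log2 fold change 1.66, FDR 0.00620).

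Collagens differed among themselves. Of the fibrillar collagens, 6 of 11 rose, the other 5 did not pass the test and the median was 0.70. Col11a1, a minor fibril collagen that limits fibril diameter, was measured at 57.6, 2.38 and 46.0 CPM in the control mice and 509.5, 478, 832, 653 and 433 CPM in the WB1P mice, and all WB1P mice were above the control mice (log2 fold change 4.04, SE 0.87, FDR 0.00765). Col5a1, which nucleates collagen I fibrils, rose from 3032 ± 714 to 6382 ± 481 CPM (log2 fold change 1.07, SE 0.19, FDR 0.00309). Col3a1, one of the abundant collagens of loose connective tissue, was at 20464, 14539 and 18653 CPM in the control mice and 16597, 21403, 14045, 17864 and 15036 CPM in the WB1P mice, and the groups overlapped (log2 fold change -0.07, SE 0.20, FDR 0.795). Among the collagens that sit on fibrils, form short chains or form beaded filaments, 7 of 17 rose and 1 fell, around a median of 1.16. Col12a1, a fibril-associated collagen of tissues under tension, was at 558, 70.4 and 385 CPM in the control mice and 8613, 10471, 9702, 13181 and 10466 CPM in the WB1P mice (log2 fold change 4.96, SE 0.66, FDR 0.000887). Col8a2, the partner chain of Col8a1, rose from 8.02 ± 1.46 to 319 ± 73.2 CPM (log2 fold change 5.31, SE 0.27, FDR 1.69e-05). Of the chains of the beaded collagen VI, Col6a1 was at 4402 ± 532 CPM in NFs and 6083 ± 841 CPM in CAFs (log2 fold change 0.47, FDR 0.0676) and Col6a2 at 4634 ± 776 CPM in NFs and 5451 ± 775 CPM in CAFs (log2 fold change 0.23, FDR 0.351), whereas Col6a3 rose (log2 fold change 0.97, FDR 0.00266). Col20a1 was the member that fell (log2 fold change -1.05, FDR 0.0244, with an FDR of 0.0502 to 0.106 on leaving out any one of WB1P #14, WB1P #35, control 49/52 or control 82/83).

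Genes that modify, cut and crosslink collagen were mostly higher. Of the tested members of this list, 20 of 29 rose (69%) and 1 fell, with a median of 0.74. P4ha3, a prolyl hydroxylase subunit that stabilizes the triple helix, was measured at 9.86, 17.0 and 11.2 CPM in the control mice and 274, 259.6, 267, 384 and 277 CPM in the WB1P mice (log2 fold change 4.53, SE 0.26, FDR 2.00e-05). P4ha2, another subunit of that enzyme, rose from 92.5 ± 12.1 to 314 ± 43.2 CPM (log2 fold change 1.76, FDR 0.000164). Loxl3, a lysyl oxidase that starts crosslinks, was at 139.5, 97.5 and 115 CPM in the control mice and 625, 772, 978, 896 and 956 CPM in the WB1P mice (log2 fold change 2.85, SE 0.22, FDR 6.87e-05). Adamts2, which removes the amino propeptide of procollagen, rose from 589 ± 62.3 to 1802 ± 135 CPM (log2 fold change 1.61, FDR 0.000152). Loxl1, an oxidase of elastin, was at 768 ± 253 CPM in NFs and 818 ± 116 CPM in CAFs and did not pass the test (log2 fold change 0.09, FDR 0.780), nor did Ctsk, a collagen-degrading cathepsin gene (log2 fold change 0.06, FDR 0.803).

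Matricellular proteins sit in the matrix and signal to cells without building fibers. Of those tested, 12 of 25 rose and 3 fell (median 0.94). Ccn2 (CTGF), a target of YAP and TGF-beta signaling, was measured at 41.5, 24.0 and 30.5 CPM in the control mice and 982, 661, 830.2, 809 and 1011 CPM in the WB1P mice (log2 fold change 4.75, SE 0.27, FDR 2.00e-05). Spp1 (osteopontin), a ligand of integrins and CD44, was at 2.93, 9.01 and 5.08 CPM in the control mice and 606, 2385, 2178, 1877 and 2163 CPM in the WB1P mice (log2 fold change 8.34, SE 0.70, FDR 0.000116). Thbs4, a thrombospondin of tendon and muscle, was at 11.8, 15.4 and 9.33 CPM in the control mice and 119, 1401, 773, 703 and 337 CPM in the WB1P mice (log2 fold change 5.78, SE 0.84, FDR 0.00129). In these 3 genes all WB1P mice were above all control mice, and WB1P #10 was the lowest of the WB1P mice for Spp1 and Thbs4. Spon2 fell from 297 ± 13.6 to 23.8 ± 12.8 CPM (log2 fold change -3.63, FDR 0.000633).

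Within the small leucine-rich proteoglycans, which space collagen fibrils, 5 of 13 rose and 5 fell. Dcn (decorin) was measured at 3946, 6186 and 3880.2 CPM in the control mice and 458, 1764, 795, 1071 and 1061 CPM in the WB1P mice and fell (log2 fold change -2.18, SE 0.38, FDR 0.00284). Lum (lumican) was at 2503, 2275 and 2299 CPM in the control mice and 417, 1069.9, 646, 802 and 594 CPM in the WB1P mice (log2 fold change -1.74, SE 0.27, FDR 0.00158). Bgn (biglycan), the close relative of decorin, was at 2499, 2734 and 2056 CPM in the control mice and 6883, 8562, 7566, 7576 and 6876 CPM in the WB1P mice and rose (log2 fold change 1.62, SE 0.17, FDR 0.000297). No mouse broke these orders. Podnl1 rose from 0.264 ± 0.0304 to 60.1 ± 15.1 CPM (log2 fold change 7.81, FDR 7.25e-06) and Aspn (asporin) from 66.4 ± 19.4 to 463 ± 132 CPM (log2 fold change 2.80, FDR 0.000350), while Epyc fell to 0, 0.541, 0.556, 0.358 and 1.69 CPM in the WB1P mice (log2 fold change -5.31, FDR 0.000518, and -6.07 without WB1P #35). Fmod (fibromodulin) rose in all WB1P mice, and WB1P #10 stood far above the other 4, at 1913, 282, 330.4, 196 and 273 CPM (log2 fold change 3.81, FDR 0.0108, and 2.68 without WB1P #10).

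Basement membrane genes split by subunit. Of these, 4 of 25 tested members rose (16.0%), 7 fell (28.0%) and the median was -0.06, beside 18.0% and 18.4% of all genes. Lama1, the laminin alpha chain of embryonic basement membranes, was measured at 4.40, 0.643 and 6.24 CPM in the control mice and 63.4, 67.9, 55.0, 78.8 and 77.1 CPM in the WB1P mice (log2 fold change 4.18, SE 0.59, FDR 0.00113). Lama2, the alpha chain of muscle and stromal cells, was at 3483, 2933 and 3286 CPM in the control mice and 475, 487, 848, 516 and 341 CPM in the WB1P mice (log2 fold change -2.60, SE 0.26, FDR 0.000243). Lamc3, a laminin gamma chain, was at 779, 515 and 763 CPM in the control mice and 29.2, 14.8, 35.5, 15.5 and 20.5 CPM in the WB1P mice (log2 fold change -4.89, SE 0.33, FDR 4.59e-05). Col4a3 and Col4a4, chains of the collagen IV network of filtering membranes, fell from 22.8 ± 14.8 to 0.727 ± 0.502 CPM (log2 fold change -4.92, FDR 0.000663, and -4.23 without control 49/52) and from 36.2 ± 21.8 to 1.66 ± 0.726 CPM (log2 fold change -4.42, FDR 0.000237, and -3.80 without control 49/52). Col4a1 and Col4a2, the common collagen IV chains, had log2 fold changes of -0.06, FDR 0.834 and of -0.02, FDR 0.939. The count of members that rose was 2 when control 44/46 or control 82/83 was left out. Elastic fiber genes also went both ways, with 5 of 15 that rose and 4 that fell. Fbn1 (fibrillin) rose from 2193 ± 607 to 5023 ± 534 CPM (log2 fold change 1.20, FDR 0.00287) and Eln (elastin) was at 917 ± 374 CPM in NFs and 1222 ± 281 CPM in CAFs (log2 fold change 0.41, FDR 0.305), whereas Emilin2, an elastin-binding glycoprotein, fell from 318 ± 22.9 to 181 ± 19.5 CPM (log2 fold change -0.82, FDR 0.00157). The count that fell was 2 when any one of 5 mice was left out, namely control 82/83, control 49/52, WB1P #12 R4, WB1P #14 or WB1P #35, and the count that rose was 3 without control 44/46.

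Most contractile genes were higher. Of those tested, 16 of 26 rose (61.5%), 1 fell and the median was 1.80. Acta2 (alpha smooth muscle actin), the defining gene of myofibroblasts, was measured at 104, 34.9 and 105 CPM in the control mice and 1181, 815, 1136, 1236 and 1529 CPM in the WB1P mice. The lowest WB1P mouse was far above the highest control mouse (log2 fold change 3.86, SE 0.42, FDR 0.000354). Actg2, the gamma actin of enteric smooth muscle, was at 0.660, 1.44 and 0.598 CPM in the control mice and 137, 93.1, 67.7, 148 and 216 CPM in the WB1P mice (log2 fold change 7.21, SE 0.56, FDR 8.14e-05). Tpm2, a tropomyosin, rose from 57.6 ± 14.0 to 243 ± 38.5 CPM (log2 fold change 2.08, FDR 0.000219) and Actn1, which crosslinks actin at adhesions, from 72.2 ± 21.2 to 509 ± 84.8 CPM (log2 fold change 2.82, FDR 0.000132). Srf, the serum response factor that drives many actin genes, fell in all WB1P mice, from 119.9 ± 27.2 to 70.2 ± 9.44 CPM (log2 fold change -0.77, FDR 0.00640). Flna, a filamin, was at 1268 ± 451 CPM in NFs and 1858 ± 282 CPM in CAFs and did not pass the test (log2 fold change 0.55, FDR 0.121). Pericytes also express contractile genes, and the summed level of the pericyte markers moved in the same direction, with 1619 to 2231 CPM in the control mice and 3487 to 8698 CPM in the WB1P mice; its part in the contractile counts was not tested.

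Serum response factor binds the CArG box, a CC and a GG that enclose a run of A and T bases. Promoter windows of the contractile genes, the 250 bases before the RefSeq start on GRCm38.p6, were searched for it on both strands. A match lay in 7 of 22 members with a window (31.8%) and in 1.39% of the 11209 windows of all tested genes. The matches were in 3 of 12 members that rose and in 4 of 10 that did not. Shown are stretches around the box, in capitals, of the 2 members with a match and the smallest FDR among those that rose, Myl9 at chr2:156775273-156775342 and Cnn2 at chr10:79988514-79988583, both on the plus strand. The box reads as a CArG box on either strand. A match describes letters of the window only.
Myl9: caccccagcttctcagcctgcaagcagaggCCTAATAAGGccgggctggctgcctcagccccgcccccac
Cnn2: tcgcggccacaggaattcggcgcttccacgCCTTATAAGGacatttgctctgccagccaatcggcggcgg

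Matrix metalloproteinases (MMPs) cut collagen and other matrix proteins, and TIMPs and Reck hold them back. Of this list, 5 of 21 tested members rose (23.8%) and 4 fell (19.0%), beside 18.0% and 18.4% of all genes. Mmp13, a collagenase, was measured at 1.72, 0.189 and 0.830 CPM in the control mice and 183, 3703, 907, 1571 and 2382 CPM in the WB1P mice (log2 fold change 10.89, SE 1.37, FDR 0.000681, and 11.69 without control 82/83). Mmp10, a stromelysin, was at 0.367, 0 and 0.0664 CPM in the control mice and 6.66, 519.9, 244, 273 and 337 CPM in the WB1P mice (log2 fold change 10.86, SE 1.68, FDR 0.00170, and 12.72 without control 82/83). Mmp9, a gelatinase, was at 0.330, 0.454 and 0.598 CPM in the control mice and 128, 558, 247, 496 and 841 CPM in the WB1P mice (log2 fold change 9.92, SE 0.86, FDR 0.000132). All 3 were nearly absent from the control mice, and WB1P #10 was the lowest of the WB1P mice for each. Reck, a membrane inhibitor of MMPs, was at 214, 233 and 225 CPM in the control mice and 37.6, 49.0, 60.5, 65.7 and 39.9 CPM in the WB1P mice and fell (log2 fold change -2.15, SE 0.19, FDR 0.000132). Mmp14 and Mmp2 did not pass the test. Mmp14, which activates Mmp2 at the cell surface, was at 1321 ± 254 CPM in NFs and 1831 ± 208 CPM in CAFs (log2 fold change 0.47, FDR 0.0670) and Mmp2 at 2342 ± 459 CPM in NFs and 2056 ± 540.0 CPM in CAFs (log2 fold change -0.19, FDR 0.555). The count of members that fell was 1 or 2 when any one of control 44/46, WB1P #10, WB1P #93, WB1P #12 R4 or WB1P #35 was left out.

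Metalloproteinase genes are textbook targets of AP-1, the dimer of Fos and Jun proteins that binds TGANTCA. In the same windows this site was found, on either strand, in 4 of 16 members of the list (25.0%) and in 5.86% of all windows. It was in 2 of the 4 members that rose and in 2 of the 12 that did not. The 2 that rose are shown because they had the largest changes of the list, Mmp13 at chr9:7272449-7272513 and Mmp10 at chr9:7502249-7502315, both on the plus strand, with the site in capitals.
Mmp13: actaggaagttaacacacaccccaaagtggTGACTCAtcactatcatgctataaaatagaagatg
Mmp10: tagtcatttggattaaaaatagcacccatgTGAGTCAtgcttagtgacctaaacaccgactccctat

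Genes of AP-1 itself and other immediate-early genes also respond to tissue dissociation. Of these, 2 of 30 rose and 9 fell, with a median of -0.45, and the count that fell was 5 when control 49/52, WB1P #14 or WB1P #35 was left out. Fos was measured at 758, 2584 and 1878 CPM in the control mice and 1817, 607, 702, 1157 and 1152 CPM in the WB1P mice, and the groups overlapped (log2 fold change -0.68, SE 0.44, FDR 0.258). Egr1 fell from 3815 ± 2009.9 to 1291 ± 319 CPM (log2 fold change -1.56, FDR 0.00696) and Fosl2 from 1138 ± 207 to 575 ± 117 CPM (log2 fold change -0.99, FDR 0.00514).

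In the TGF-beta, activin and BMP pathway, 12 of 49 tested members rose (24.5%) and 8 fell (16.3%), beside 18.0% and 18.4% of all genes. Among ligands, Inhba, the subunit of activin A, was measured at 12.6, 4.58 and 2.66 CPM in the control mice and 1055, 1554, 933, 845 and 1071 CPM in the WB1P mice (log2 fold change 7.37, SE 0.63, FDR 0.000125, and 8.22 without control 82/83), and Inhbb, that of activin B, rose from 4.99 ± 1.07 to 56.4 ± 14.0 CPM (log2 fold change 3.50, FDR 6.94e-05). Bmp7 was at 142, 30.3 and 93.9 CPM in the control mice and 4.72, 1.53, 1.39, 1.61 and 2.41 CPM in the WB1P mice and fell (log2 fold change -5.30, SE 0.55, FDR 0.000294). The activin subunits and Bmp7 were without overlap between the groups. The BMP antagonist Grem1 was at 0.367, 0.870 and 0.266 CPM in the control mice and 50.7, 65.6, 48.2, 79.0 and 108 CPM in the WB1P mice (log2 fold change 7.14, SE 0.50, FDR 5.37e-05, and 7.80 without control 49/52). Of the receptors, Tgfbr3 (betaglycan) fell from 565 ± 34.1 to 124 ± 52.8 CPM (log2 fold change -2.19, FDR 0.00187), Bmpr1b rose from 0.734 ± 0.234 to 16.6 ± 6.18 CPM (log2 fold change 4.50, FDR 0.000145) and Tgfbr2 was at 506 ± 45.1 CPM in NFs and 796 ± 256 CPM in CAFs (log2 fold change 0.65, FDR 0.0790, with an FDR of 0.0275 without WB1P #10).

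Of the Wnt pathway, 15 of 34 rose and 8 fell (median 0.92). Wnt7b, an epithelial ligand in most tissues, was measured at 0.220, 0.303 and 0.166 CPM in the control mice and 1.32, 6.94, 5.88, 4.88 and 11.8 CPM in the WB1P mice (log2 fold change 4.73, SE 0.72, FDR 0.00160). Wnt2, a ligand of mesenchyme, was at 62.9, 22.9 and 55.8 CPM in the control mice and 8.21, 9.91, 3.73, 5.73 and 7.44 CPM in the WB1P mice and fell (log2 fold change -2.76, SE 0.37, FDR 0.000936). Rspo1, which amplifies Wnt signals in the mammary gland, fell from 22.5 ± 11.7 to 2.86 ± 1.05 CPM (log2 fold change -2.99, FDR 0.00135), and Rspo4 counts were 79.5 times lower (95% counting interval 26.8 to 389, FDR 0.000179). Dkk2, a secreted antagonist, rose from 9.69 ± 2.98 to 53.6 ± 23.4 CPM (log2 fold change 2.47, FDR 0.00208). In the Notch pathway, 6 of 17 rose and 4 fell. Notch3, the receptor of mural cells, was at 111, 126 and 98.5 CPM in the control mice and 916, 276, 446, 299 and 379 CPM in the WB1P mice (log2 fold change 2.05, SE 0.41, FDR 0.00555). Notch2 was at 293, 218 and 311 CPM in the control mice and 94.5, 164, 89.0, 90.3 and 90.5 CPM in the WB1P mice and fell (log2 fold change -1.38, SE 0.23, FDR 0.00232), and Notch1 was at 253 ± 52.4 CPM in NFs and 254 ± 69.5 CPM in CAFs (log2 fold change 0.01, FDR 0.989). The count of Notch members that fell was 2 without control 44/46, WB1P #10 or WB1P #35.

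Growth factor genes had 15 of 42 members that rose and 8 that fell. The ligands Pdgfa and Pdgfc, which act on Pdgfra, rose. Pdgfa was measured at 2.46, 2.57 and 2.39 CPM in the control mice and 57.7, 97.7, 64.6, 39.1 and 71.9 CPM in the WB1P mice (log2 fold change 4.74, SE 0.32, FDR 4.67e-05), and Pdgfc rose from 1.39 ± 0.637 to 34.8 ± 8.20 CPM (log2 fold change 4.64, FDR 8.76e-05). Hbegf and Nrg1, ligands of the EGF receptor family, rose from 29.4 ± 5.86 to 238 ± 45.4 CPM (log2 fold change 3.01, FDR 5.64e-05) and from 1.69 ± 0.309 to 52.5 ± 22.9 CPM (log2 fold change 4.95, FDR 0.000167). Egfr was at 853, 735 and 786 CPM in the control mice and 198, 348, 295, 279 and 241 CPM in the WB1P mice and fell in all WB1P mice (log2 fold change -1.54, SE 0.18, FDR 0.000461). Hgf, the ligand of Met on epithelium, fell from 90.9 ± 15.4 to 42.2 ± 9.36 CPM (log2 fold change -1.11, FDR 0.00233), and Igfbp6 fell from 329.6 ± 191 to 64.4 ± 23.2 CPM (log2 fold change -2.35, FDR 0.00210, and -1.75 without control 49/52).

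Of the chemokines and cytokines, 17 of 40 rose and 1 fell (median 1.81). The count that rose was 10 without control 44/46 and 11 without control 82/83. Lif, an interleukin-6 family cytokine, was measured at 33.7, 28.2 and 16.4 CPM in the control mice and 206, 636, 245, 143 and 205 CPM in the WB1P mice (log2 fold change 3.46, SE 0.56, FDR 0.00205). Tnfsf11 (RANKL), the ligand that drives osteoclasts and mammary stem cells, was at 0.917, 0.341 and 1.06 CPM in the control mice and 19.7, 31.2, 22.4, 12.4 and 22.3 CPM in the WB1P mice (log2 fold change 4.79, SE 0.45, FDR 0.000176). Both were without overlap. Ccl20 and Ccl17, chemokines that attract T cells, stayed low, and their summed counts were 99.0 times higher (95% counting interval 27.1 to 822, FDR 0.000389) and 32.0 times higher (10.7 to 157, FDR 0.000959). For Ccl17 the value was 65.7 times without control 49/52. Ccl11 (eotaxin) was at 330.2, 349 and 202 CPM in the control mice and 143, 159, 120.2, 87.3 and 123 CPM in the WB1P mice and fell (log2 fold change -1.22, SE 0.23, FDR 0.00390). Cxcl1, a neutrophil chemokine, was at 715, 928 and 379 CPM in the control mice and 529.9, 1857, 896, 633 and 573 CPM in the WB1P mice, and the groups overlapped (log2 fold change 0.41, SE 0.47, FDR 0.517). For Csf1, the macrophage growth factor, the log2 fold change was 0.51, FDR 0.427.

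Complement genes, which stromal cells secrete in quantity, had 4 of 25 members that rose (16.0%) and 7 that fell (28.0%), beside 18.0% and 18.4% of all genes. C7, a part of the membrane attack complex, was measured at 106, 446 and 85.9 CPM in the control mice and 5.19, 35.5, 6.87, 10.7 and 39.7 CPM in the WB1P mice and fell (log2 fold change -3.43, SE 0.80, FDR 0.0104, and -2.27 without control 49/52), and C3 was at 1250.3 ± 1161 CPM in NFs and 1085 ± 915 CPM in CAFs (log2 fold change -0.21, FDR 0.858). Members that rose included C1qb, which macrophages make, and the immune marker list gave 47.6 to 67.2 CPM in the control mice and 32.1 to 197 CPM in the WB1P mice in summed level. The count of complement members that fell was 3 without control 49/52 and 4 without control 44/46 or WB1P #14, and the count that rose was 2 without control 44/46 or control 82/83.

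Interferon-stimulated genes encode antiviral proteins that type I and type II interferons switch on. Of those tested, 25 of 36 rose (69.4%) and the other 11 did not pass the test, with a median of 1.76. Ifi44 was measured at 0.293, 0.605 and 0.299 CPM in the control mice and 22.9, 16.8, 20.1, 18.6 and 28.8 CPM in the WB1P mice (log2 fold change 5.74, SE 0.34, FDR 2.09e-05). Mx1, a dynamin-like antiviral GTPase, was at 0.257, 0.416 and 0.266 CPM in the control mice and 5.26, 4.64, 4.84, 4.92 and 6.09 CPM in the WB1P mice (log2 fold change 4.02, SE 0.28, FDR 4.97e-05). Oas2, which makes the activator of RNase L, was at 1.36, 3.18 and 1.69 CPM in the control mice and 19.2, 19.1, 30.7, 17.9 and 22.7 CPM in the WB1P mice (log2 fold change 3.40, SE 0.34, FDR 0.000235). These 3 genes were without overlap, at a few CPM or less in the control mice. Other members did not pass the test. Irf1, a transcription factor induced mostly by interferon gamma, was at 139.6, 557 and 256 CPM in the control mice and 171, 94.1, 134, 227 and 204 CPM in the WB1P mice (log2 fold change -0.94, SE 0.42, FDR 0.116, with an FDR of 0.0328 without control 82/83). Gbp2, a guanylate-binding protein, was at 73.9, 294 and 59.6 CPM in the control mice and 252, 134, 129.6, 68.1 and 119 CPM in the WB1P mice, and the groups overlapped (log2 fold change -0.02, SE 0.56, FDR 0.980). Control 49/52 was the highest of all 8 mice for both. In summed level the list overlapped between the groups, with 708 to 2264 CPM in the control mice and 1338 to 2114 CPM in the WB1P mice.

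The same control mouse touched antigen presentation, in which 1 of 23 members rose. When control 49/52 was left out, 11 of them rose. H2-D1, a class I heavy chain, was measured at 451, 1062 and 416 CPM in the control mice and 1196, 804, 804, 556 and 811 CPM in the WB1P mice (log2 fold change 0.38, SE 0.35, FDR 0.432, with an FDR of 0.0351 without control 49/52), and B2m, its light chain, was at 316, 647 and 274 CPM in the control mice and 827, 652, 667, 499 and 633 CPM in the WB1P mice (log2 fold change 0.67, SE 0.30, FDR 0.107, with an FDR of 0.00531 without control 49/52). For each of them control 49/52 lay among the WB1P mice, and the other 2 control mice lay below all of them.

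Type I interferon acts through the interferon-stimulated response element (ISRE), searched here as GAAANNGAAA on both strands. It was found in 16 of 26 members with a window (61.5%) and in 3.21% of all windows. By change, it was in 10 of 18 members that rose and in 6 of 8 that did not. The stretches shown are those of the 4 members with a match and the smallest FDR among those that rose, with the element in capitals, at chr5:120777695-120777764 (Oas3), chr5:120887614-120887655 (Oas1g), chr12:26456533-26456602 (Rsad2) and chr5:120907526-120907569 (Oas1a), all on the minus strand. In Oas1g and Oas1a, 2 overlapping matches lie in a nearly identical stretch, and reads of these 2 paralogs could be shared. In Rsad2 the match is on the opposite strand and so reads TTTCNNTTTC.
Oas3: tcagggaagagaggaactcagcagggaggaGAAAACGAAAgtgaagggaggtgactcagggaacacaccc
Oas1g: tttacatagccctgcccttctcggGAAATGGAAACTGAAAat
Rsad2: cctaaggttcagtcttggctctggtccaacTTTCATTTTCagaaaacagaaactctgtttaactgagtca
Oas1a: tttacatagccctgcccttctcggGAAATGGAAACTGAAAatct

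Adipogenic and lipid genes were mostly lower. Of those tested, 3 of 29 rose and 17 fell (58.6%), with a median of -1.24. Pparg, the master regulator of fat cell formation, was measured at 26.5, 42.5 and 31.4 CPM in the control mice and 3.87, 6.49, 3.73, 2.86 and 3.35 CPM in the WB1P mice (log2 fold change -3.04, SE 0.27, FDR 0.000143). Lpl, the lipase that feeds fat cells, was at 2008, 2605 and 1747 CPM in the control mice and 265, 545, 463, 261 and 298 CPM in the WB1P mice (log2 fold change -2.53, SE 0.28, FDR 0.000385). Both fell without overlap. Against this direction, Dlk1, which blocks fat cell formation, was at 0.513, 1.29 and 0.830 CPM in the control mice and 14.1, 36.5, 12.9, 15.8 and 25.6 CPM in the WB1P mice (log2 fold change 4.58, SE 0.51, FDR 0.000363), and Fabp5, a fatty acid carrier, rose from 4.57 ± 0.603 to 58.1 ± 17.5 CPM (log2 fold change 3.67, FDR 6.91e-05). Markers of mature fat cells lay in summed level at 64.6 to 126 CPM in the control mice and 7.36 to 71.2 CPM in the WB1P mice, with Lep (leptin) at or below 1.36 CPM in every mouse, and their part in the lipid genes was not tested.

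Retinoid and steroid genes had 6 of 27 members that rose (22.2%) and 6 that fell (22.2%), beside 18.0% and 18.4% of all genes. In this list, 2 enzymes that make retinoic acid went opposite ways. Aldh1a1 was measured at 70.1, 64.5 and 78.6 CPM in the control mice and 2.09, 2.66, 0.953, 5.23 and 3.61 CPM in the WB1P mice (log2 fold change -4.60, SE 0.42, FDR 0.000167). Aldh1a2 was at 1.87, 6.05 and 0.897 CPM in the control mice and 82.2, 143, 248, 159.9 and 76.2 CPM in the WB1P mice (log2 fold change 5.60, SE 0.75, FDR 0.000895, and 6.70 without control 49/52). For neither did the groups overlap. Among receptors, Nr3c1 (glucocorticoid) fell from 167 ± 29.1 to 95.3 ± 5.90 CPM (log2 fold change -0.81, FDR 0.00178) and Vdr (vitamin D) rose from 8.72 ± 2.31 to 40.0 ± 11.7 CPM (log2 fold change 2.20, FDR 0.000883).

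Of the glycolysis and hypoxia genes, 23 of 34 rose (67.6%) and the other 11 did not pass the test (median 1.21). Pkm, which encodes pyruvate kinase, was measured at 202, 198 and 185 CPM in the control mice and 833, 821, 877, 936 and 1119 CPM in the WB1P mice (log2 fold change 2.23, SE 0.16, FDR 5.04e-05). Slc2a1, the glucose transporter GLUT1, was at 70.9, 93.0 and 57.2 CPM in the control mice and 352, 341, 331, 329 and 396 CPM in the WB1P mice (log2 fold change 2.25, SE 0.18, FDR 8.91e-05). The housekeeping enzyme Gapdh moved with them, from 101 ± 6.72 to 373 ± 40.1 CPM (log2 fold change 1.89, FDR 5.92e-05), and Eno1 (enolase) rose from 81.5 ± 5.74 to 417 ± 86.6 CPM (log2 fold change 2.36, FDR 9.56e-05). Hk2, a hexokinase, was at 472 ± 127 CPM in NFs and 569.9 ± 134 CPM in CAFs (log2 fold change 0.27, FDR 0.403).

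Cell cycle genes had the highest share of rises, with 34 of 40 that rose (85%), 1 that fell and a median of 2.28. Birc5 (survivin), made in mitosis, was measured at 1.72, 0.946 and 2.49 CPM in the control mice and 9.68, 13.7, 13.3, 11.8 and 19.8 CPM in the WB1P mice (log2 fold change 2.98, SE 0.36, FDR 0.000567). Rrm2, a subunit of the enzyme that makes nucleotides for replication, was at 7.26, 3.44 and 6.78 CPM in the control mice and 26.7, 24.9, 31.1, 31.1 and 39.6 CPM in the WB1P mice (log2 fold change 2.39, SE 0.28, FDR 0.000440), and Cdc20, an activator of the anaphase-promoting complex, rose from 3.35 ± 0.779 to 16.3 ± 5.08 CPM (log2 fold change 2.29, FDR 0.000687). Pcna, a replication clamp that is also used in repair, went the other way (log2 fold change -0.54, FDR 0.0373, with an FDR of 0.0642 to 0.131 on leaving out any one of WB1P #10, WB1P #14, WB1P #35, WB1P #93 or control 49/52). Epithelial cells of the tumor also cycle, and the epithelial markers summed to 52.8 to 187 CPM in the control mice and 82.6 to 274 CPM in the WB1P mice; their part was not tested.

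Of the genes of protein folding in the endoplasmic reticulum, 8 of 37 rose (21.6%, beside 18.0% of all genes), with a median of 0.20. P4hb, which is a subunit of prolyl hydroxylase besides a disulfide isomerase, rose from 1092 ± 134 to 1714 ± 122 CPM (log2 fold change 0.65, FDR 0.00840), and Hspa5 (BiP), the central chaperone, was at 1507 ± 391 CPM in NFs and 1382 ± 237 CPM in CAFs (log2 fold change -0.13, FDR 0.665). The count that rose was 4 without control 44/46 and 5 without control 49/52, WB1P #12 R4 or WB1P #35. Of the integrins, receptors for matrix, 11 of 20 rose and 1 fell, and the count that rose was 6 without control 44/46 and 7 without control 82/83. Itga1, the collagen-binding alpha chain, was measured at 20.3, 22.1 and 30.4 CPM in the control mice and 636, 259, 668, 325 and 485 CPM in the WB1P mice (log2 fold change 4.29, SE 0.40, FDR 0.000176). Itga8, a chain that binds nephronectin and fibronectin, was at 127, 94.7 and 128 CPM in the control mice and 18.4, 8.29, 19.1, 16.8 and 14.9 CPM in the WB1P mice (log2 fold change -2.91, SE 0.25, FDR 0.000126). The first of these rose and the second fell without overlap, and Itgb1, the common beta chain, rose from 671 ± 127 to 1591 ± 138 CPM (log2 fold change 1.25, FDR 0.000931).

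Pericytes are mural cells of capillaries, and any without the 4 proteins of the exclusion gate could pass it. Of their markers, 11 of 16 rose (68.8%), 2 fell and the median was 2.79. Rgs5, a marker of pericytes, was measured at 15.7, 30.5 and 38.9 CPM in the control mice and 2282, 743, 589, 711 and 872 CPM in the WB1P mice (log2 fold change 5.20, SE 0.63, FDR 0.000540). Mcam (CD146) was at 9.68, 9.31 and 10.5 CPM in the control mice and 766, 221, 624, 269 and 495 CPM in the WB1P mice (log2 fold change 5.59, SE 0.51, FDR 0.000167), and Cspg4 (NG2) was at 15.3, 18.7 and 17.2 CPM in the control mice and 422, 439, 566, 278 and 449 CPM in the WB1P mice (log2 fold change 4.66, SE 0.26, FDR 2.00e-05). All WB1P mice were above the control mice in these 3, and WB1P #10 was the highest for Rgs5 and Mcam. Vtn (vitronectin) fell from 65.5 ± 55.1 to 18.6 ± 6.89 CPM (log2 fold change -1.81, FDR 0.0178, with an FDR of 0.0846 without control 49/52) and Steap4 from 220.3 ± 96.0 to 87.9 ± 43.6 CPM (log2 fold change -1.32, FDR 0.0354, with an FDR of 0.0546 to 0.157 on leaving out any one of WB1P #12 R4, WB1P #14, WB1P #35, control 44/46 or control 49/52). WB1P #10 also had the highest summed level, at 8698 CPM.

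Endothelial markers went in both directions. Of the list, 4 of 18 rose and 7 fell. Flt1, a VEGF receptor, was measured at 6.97, 7.98 and 10.0 CPM in the control mice and 299.5, 115, 189.5, 103 and 265 CPM in the WB1P mice (log2 fold change 4.54, SE 0.45, FDR 0.000231), and Esam, an adhesion molecule, rose from 5.26 ± 1.07 to 32.9 ± 17.2 CPM (log2 fold change 2.64, FDR 0.00214). Cdh5 (VE-cadherin) was at 4.77, 8.82 and 12.0 CPM in the control mice and 2.09, 1.13, 1.83, 2.77 and 2.03 CPM in the WB1P mice and fell (log2 fold change -2.11, SE 0.35, FDR 0.00208), as did Cldn5, the claudin of capillaries, from 1.47 ± 0.799 to 0.110 ± 0.0754 CPM (log2 fold change -3.60, FDR 0.00182). Vwf fell from 13.9 ± 1.97 to 3.49 ± 0.848 CPM (log2 fold change -1.99, FDR 0.000412), and Kdr, another VEGF receptor, was at 7.87 ± 1.25 CPM in NFs and 5.53 ± 1.99 CPM in CAFs (log2 fold change -0.51, FDR 0.212).

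**Figure D4:**
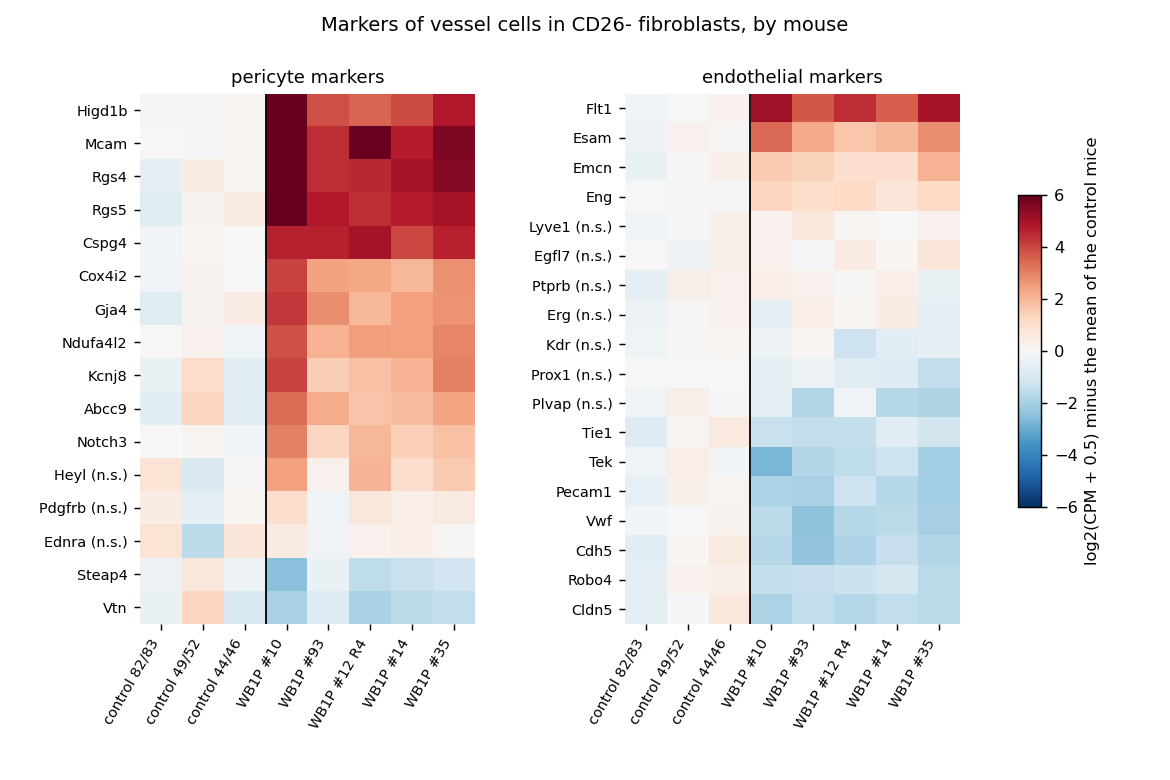
Each cell gives a mouse's log2(CPM + 0.5) minus the mean of the 3 control mice, with colors clipped at 6 in either direction, for pericyte (left) and endothelial markers (right) in the 8 mice, and n.s. marks genes with an FDR of 0.05 or more. Rgs5, Mcam, Cspg4 and Flt1 are higher in all 5 WB1P mice, and Cdh5, Pecam1 and Cldn5 are lower.

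Markers of other cells that could pass or contaminate the gate were low or mixed. Of the epithelial markers, 7 of 20 rose, a count of 1 or 2 without control 82/83 or control 49/52. Krt18, a keratin of luminal cells, was measured at 6.93, 6.09 and 11.4 CPM in the control mice and 12.6, 21.4, 16.0, 31.3 and 35.5 CPM in the WB1P mice (log2 fold change 1.52, SE 0.38, FDR 0.0148, with an FDR of 0.0526 without control 49/52 and 0.0536 without control 82/83). Of the immune markers, 7 of 20 rose and 2 fell. The count that rose was 2 to 4 when any one control mouse or WB1P #93 was left out. Csf1r, a receptor of macrophages, was at 1.94, 2.04 and 2.92 CPM in the control mice and 5.88, 11.2, 4.65, 6.89 and 19.4 CPM in the WB1P mice (log2 fold change 2.06, SE 0.50, FDR 0.0123). Schwann cell markers had 2 of 11 members that rose, Ncam1 among them, from 12.5 ± 3.80 to 274 ± 50.4 CPM (log2 fold change 4.46, FDR 2.35e-05), and 3 that fell, among them Pmp22, a peripheral myelin protein, from 233 ± 60.6 to 112 ± 17.4 CPM (log2 fold change -1.05, FDR 0.00272). Of the skeletal muscle markers, 2 of 12 rose, including Des (desmin), which mural cells also make (log2 fold change 2.98, FDR 0.00511, and 4.11 without control 49/52), and 2 fell. Counts of these last 2 lists rest on 2 or 3 members and changed by 1 when single mice were left out. In summed level the skeletal muscle markers were at 71.8, 370 and 85.3 CPM in the control mice, with 49/52 the highest. The WB1P mice had 95.1 to 137 CPM. The part of muscle cells in the values of control 49/52 was not tested.

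EN1+ and double- cells were also compared within each sort. In EN1+ libraries, from 3 control and 5 WB1P mice, 897 of 13837 genes (6.48%) were called higher and 525 (3.79%) lower. In double- libraries, from 3 control and 4 WB1P mice, 809 of 13948 genes (5.8%) were called higher and 502 (3.6%) lower. Log2 fold changes of Col8a1 were 9.33 in EN1+ and 9.21 in double- libraries, those of Acta2 were 3.81 in EN1+ and 3.92 in double- libraries, those of Mmp13 were 11.11 in EN1+ and 10.97 in double- libraries, and those of Pparg were -3.59 in EN1+ and -2.50 in double- libraries. Rgs5 had values of 4.92 in EN1+ and 5.08 in double- libraries. The difference in the response to the tumor between the sorts was tested as an interaction over 14645 genes. No gene passed in edgeR (127 genes had an unadjusted p under 0.05) or in DESeq2 (213 such genes). With the mouse as a block, since both sorts came from the same animals, the response was higher in EN1+ cells for 120 genes (0.819%) and lower for 160 genes (1.09%). Of the lists, those with at least 4 members that passed were the resident fibroblast markers (7 of 22 lower in EN1+ cells), the pericyte markers (5 of 16 lower), the basement membrane genes (4 of 25 lower) and the growth factor ligands and receptors (5 of 41 higher).

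CD26+ cells of the same mice, 13 libraries from 3 control and 4 WB1P mice, served to show which changes differed by CD26 class. Of 14813 genes tested in them, 592 were called higher (4.0%) and 401 lower (2.71%). Genes called higher in both classes numbered 391, which is 40.1% of the 976 in CD26- and 66.0% of the 592 in CD26+ cells. Genes called lower in both numbered 210, which is 31.7% of the 663 and 52.4% of the 401. Of the 976 genes, 744 were tested in CD26+ cells, where 691 went in the same direction. Of the 663 genes, 571 were tested there and 535 went in the same direction. The difference in response itself was tested as an interaction over 16118 genes. It was higher in CD26- cells for 182 genes (1.13%) and lower for 116 (0.72%), and with the mouse as a block for 655 (4.06%) and 508 (3.15%). Without control 44/46 the counts of the fit without the block were 27 and 7. Among the 976 genes called higher in CD26- cells, 105 had a higher response in CD26- than in CD26+ cells by this test without the block, and among the 663 called lower, 44 had a lower one. In each set, 0 genes passed with the opposite sign. Both sets were chosen by the CD26- values that also enter the interaction, which favors this sign, so these counts are not separate support.

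Adamts16, a metalloproteinase with thrombospondin repeats, had the smallest FDR of the interaction. In CD26- cells it was measured at 0.220, 0.114 and 0.0664 CPM in the control mice and 83.2, 114, 131, 169.7 and 160.4 CPM in the WB1P mice (log2 fold change 9.91, SE 0.44, FDR 7.97e-06), and in CD26+ cells at 51.5 ± 30.4 CPM in NFs (n = 3) and 49.0 ± 23.7 CPM in CAFs (n = 4). The difference in log2 fold change was 10.00 (SE 0.85, FDR 0.000128, FDR with the mouse as a block 0.000116, and 10.97 without control 82/83). Serpine2, an inhibitor of thrombin and plasminogen activators, was at 35.5, 22.6 and 24.9 CPM in the control mice and 2216, 1817, 2470.0, 1878 and 1340.2 CPM in the WB1P mice in CD26- cells and at 42.1 ± 9.20 CPM in NFs (n = 3) and 254 ± 51.2 CPM in CAFs (n = 4) in CD26+ cells, a difference of 3.56 (SE 0.35, FDR 0.000269, FDR with the mouse as a block 0.000156). Col8a1 was at 10.9 ± 4.46 CPM in NFs (n = 3) and 1124 ± 145 CPM in CAFs (n = 4) in CD26+ cells, where it also rose (FDR 9e-05), and the rise was larger in CD26- cells by 2.65 (SE 0.38, FDR 0.00335, FDR with the mouse as a block 0.00479). The mean of each of these 3 genes was lower in CD26- NFs than in CD26+ NFs, a difference that was not tested.

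Genes of vessel-associated cells were among those with a difference. Rgs5 was at 5.51 ± 1.65 CPM in NFs (n = 3) and 2.61 ± 0.821 CPM in CAFs (n = 4) in CD26+ cells, a difference of 6.35 (SE 0.70, FDR 0.000677, FDR with the mouse as a block 0.000101). Flt1 was at 5.70 ± 1.96 CPM in NFs (n = 3) and 2.14 ± 0.809 CPM in CAFs (n = 4), a difference of 5.95 (SE 0.57, FDR 0.000269, FDR with the mouse as a block 0.000101). Among the pericyte markers the response was higher in CD26- cells for 4 members and lower for 1 (7 and 2 with the mouse as a block). Notch3 differed by 4.38 (SE 0.51, FDR 0.00108, FDR with the mouse as a block 0.000101) and Itga1 by 3.80 (SE 0.46, FDR 0.00113, FDR with the mouse as a block 0.000121). For Acta2, at 38.5 ± 32.9 CPM in NFs (n = 3) and 197 ± 49.2 CPM in CAFs (n = 4) in CD26+ cells, the difference was 1.52 (SE 0.84, FDR 0.493, FDR with the mouse as a block 0.280). Adgrf5, an adhesion receptor of endothelium and mural cells, differed by 4.50 (SE 0.50, FDR 0.000677, FDR with the mouse as a block 0.000116). These differences are not the size of the rise in CD26- cells. With each mouse left out in turn, the log2 fold change in CD26- cells was 2.01 to 2.25 for Adgrf5 and 1.65 to 2.21 for Notch3.

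Responses that were lower in CD26- cells came from several patterns. Ramp2, a partner of the adrenomedullin receptor, was at 61.3, 63.9 and 64.3 CPM in the control mice and 2.25, 6.71, 4.17, 4.38 and 6.05 CPM in the WB1P mice in CD26- cells and at 72.9 ± 26.7 CPM in NFs (n = 3) and 41.7 ± 9.19 CPM in CAFs (n = 4) in CD26+ cells, a difference of -2.90 (SE 0.42, FDR 0.00321, FDR with the mouse as a block 0.00176, with an FDR of 0.0515 without control 44/46). Tmem132d was at 6.77 ± 3.33 CPM in NFs and 0.363 ± 0.205 CPM in CAFs in CD26- and at 0.0698 ± 0.0389 CPM in NFs (n = 3) and 3.14 ± 2.20 CPM in CAFs (n = 4) in CD26+ cells, a difference of -9.62 (SE 0.97, FDR 0.000324, FDR with the mouse as a block 0.000116). St3gal4, a sialyltransferase, was at 48.8 ± 0.813 CPM in NFs and 47.2 ± 3.51 CPM in CAFs in CD26- cells and at 28.0 ± 1.10 CPM in NFs (n = 3) and 65.8 ± 6.62 CPM in CAFs (n = 4) in CD26+ cells, a difference of -1.26 (SE 0.15, FDR 0.00113, FDR with the mouse as a block 0.00164). Adk, adenosine kinase, fell in CD26- cells (log2 fold change -1.26, FDR 0.000231) and was at 58.1 ± 6.14 CPM in NFs (n = 3) and 71.9 ± 15.04 CPM in CAFs (n = 4) in CD26+ cells, a difference of -1.54 (SE 0.22, FDR 0.00291, FDR with the mouse as a block 0.00214). Spon2, given above, differed by -3.03 (SE 0.53, FDR 0.00953, FDR with the mouse as a block 0.00136, with an FDR of 0.0856 without control 44/46 and 0.0581 without control 82/83).

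**Figure D5:**
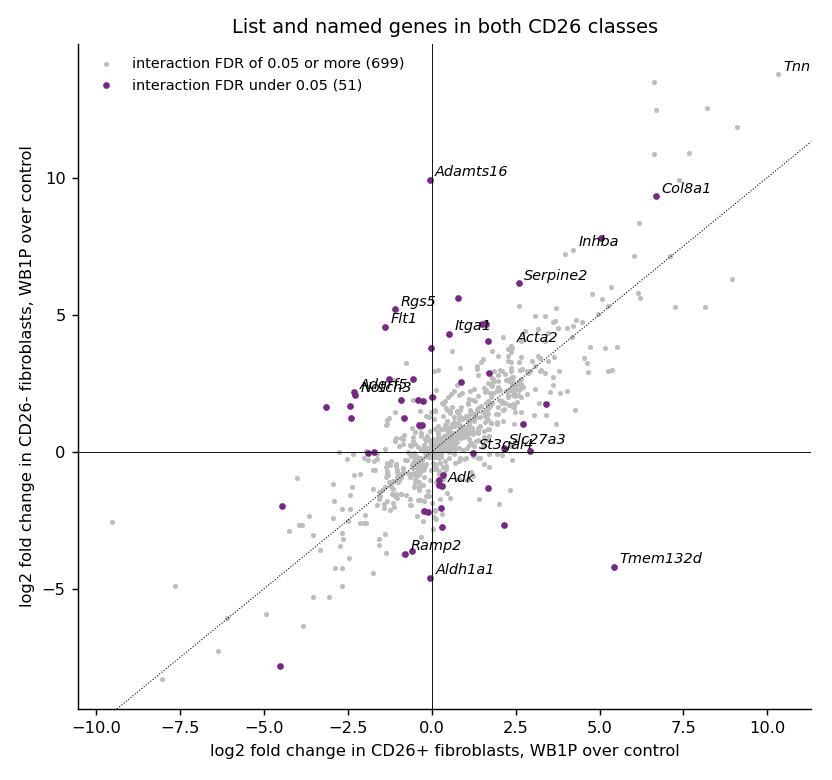
The log2 fold change of list and named genes, WB1P against control, in CD26+ cells (x axis) is plotted against that in CD26- cells (y axis), with a dotted line where both are equal. Colored points are genes whose difference between the classes had an FDR under 0.05 in the fit without the mouse as a block, among them Adamts16, Rgs5 and Flt1 above the line and Tmem132d and Ramp2 below it.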

How the data were processed

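Stranded mRNA libraries of sorted fibroblasts were sequenced as paired ends. Per the labels and the submitters' processing notes, the authors aligned reads with HISAT2 2.2.1 to GRCm38, and the deposited values are raw counts per gene. The counting program, annotation and strand setting are not given in the sources used here, so reads of overlapping, antisense or near-identical genes may be shared or split.

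Counts of the EN1+ and double- libraries were summed per mouse, and each mouse was 1 replicate. Genes were filtered with filterByExpr, scaled with TMM and tested with the robust quasi-likelihood test of edgeR 4.0.16 in R 4.3.3 with Benjamini-Hochberg adjustment (FDR). CPM uses TMM-scaled library sizes. A gene was called at an FDR under 0.05 and a log2 fold change beyond 2 in size, and list members were counted at an FDR under 0.05. The CD26 interaction used sums per mouse and class, and the interaction of the sorts used single libraries. The classes and sorts came from the same animals, and deviations of a mouse from its group mean correlated at 0.24 to 0.677 between classes and at 0.52 to 0.836 between sorts.

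Depth was 11045612 to 14478346 counts per CD26- library, and the lowest CD26+ library held 5790599. Counting intervals cover counting error only. No libraries looked like duplicates, since the lowest chi-square per degree of freedom among 22 same-group pairs was 17.15. With simulated counts, the comparison tested 15243 genes, where the data had 15331. It recovered 45 of 50 genes with a log2 change of 2, 47 with 3, 45 with -2 and 49 with -3, with 13 false calls. The CD26 interaction tested 16114 genes there, where the data had 16118. It recovered 35, 46, 32 and 40 of 50, with 7 false calls. In the data, 5570 genes of the comparison had an FDR under 0.05. Recovery with that many changes, or with the correlations within a mouse given above, was not tested.

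The fibroblast population, the 34 gene lists (815 symbols, 2 of them absent from the table) and the naming rule were chosen with earlier results of these data known. Named were the sort genes, the 10 largest changes in each direction among genes called without overlap at a mean of at least 10 CPM in the higher group, up to 4 members per list and direction with the smallest FDR, up to 3 members per list with the highest mean CPM at an FDR of 0.05 or more, and the 5 smallest FDR values of each interaction in each direction. The text gives a selection of these, and genes named outside the rule are marked. A further list member is not reported here. Promoter windows came from RefSeq (GRCm38.p6). Alternatives were DESeq2 1.42.0 size factors and Wald test, no low-count filter, all 6 groups in 1 fit, each sort alone, single libraries, the mouse as a block and each mouse left out.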

Additional observations from a re-analysis of the deposited data

Results flagged for a closer look

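The 5 WB1P mice were checked for 1 mouse that stood far from the other 4, by the gap to its nearest neighbour over the range of the group (Dixon's 95% value, 0.71). Of 187 genes named in the text, 22 met this. A gene with counts in 1 WB1P mouse alone meets it by construction, as Cpa3, Tpsb2, Lep and Ncr1 did. Some genes were also chosen after their values were seen, so the number was not set against chance. WB1P #10 stood apart upward in Rgs5 (2282 CPM, with the other mice at 589 to 872), Notch3 (916 CPM), Fmod (1913 CPM), Mcpt1 (112 CPM), Cma2 (6.50 CPM) and Gzma (0.155 CPM), and downward in Spp1 (606 CPM) and Rsad2 (7.66 CPM). This is the mouse without a double- library. WB1P #93 stood apart upward in Lif (636 CPM), Cxcl1 (1857 CPM), Notch2 (164 CPM) and Pparg (6.49 CPM), and in genes that were at or near 0 in the other WB1P mice, namely the mast cell genes Cma1 (0.901 CPM), Cpa3 (1.26 CPM) and Tpsb2 (1.13 CPM), and Lep and Ncr1 (0.0451 CPM each). Col10a1 (648 CPM) and Hs3st6 (0.357 CPM) were highest in WB1P #12 R4, Eno1 (567 CPM) and Inmt (2.03 CPM) in WB1P #35, and P4ha3 (384 CPM) in WB1P #14.

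For 33 named genes the response to the tumor differed between CD26- and CD26+ cells in the edgeR interaction test. The values here are differences in log2 fold change, CD26- minus CD26+, each with its FDR. A positive value need not be a rise in CD26- cells, where Vwf fell and Col4a1 and Col4a2 did not pass the test. It can also exceed the rise in CD26- cells, as for Notch3, Adgrf5 and Esam. For 13 of the 33 genes the FDR stayed under 0.05 whichever mouse was left out, in fits without the mouse as a block. The fit with the block was not rerun with mice left out. The response was higher in CD26- cells for Adamts16 (10.00, FDR 0.000128), for the mural and endothelial genes Rgs5 (6.35, FDR 0.000677), Flt1 (5.95, FDR 0.000269), Mcam (4.88, FDR 0.00145), Adgrf5 (4.50, FDR 0.000677), Notch3 (4.38, FDR 0.00108), Esam (3.98, FDR 0.00269) and Itga1 (3.80, FDR 0.00113), and for Serpine2 (3.56, FDR 0.000269) and Col8a1 (2.65, FDR 0.00335). It was lower for Tmem132d (-9.62, FDR 0.000324), Adk (-1.54, FDR 0.00291) and St3gal4 (-1.26, FDR 0.00113).

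In the fits without the block, the other 20 differences had an FDR of 0.05 or more without control 44/46, given last for each gene. Fewer did so without any other mouse, from 4 without WB1P #93 to 14 without control 82/83. Higher in CD26- cells were the responses of the pericyte proteoglycan Cspg4 (3.18, FDR 0.0109 and 0.0908), the growth factor Pdgfc (3.07, FDR 0.0105 and 0.0755), Podnl1 (2.77, FDR 0.0431 and 0.209), Vwf (2.46, FDR 0.0361 and 0.187), Mx1 (2.39, FDR 0.0347 and 0.188), Myl9 (1.99, FDR 0.00547 and 0.0699), the basement membrane collagens Col4a1 (1.85, FDR 0.0245 and 0.172) and Col4a2 (1.72, FDR 0.0406 and 0.228), Col6a3 (1.27, FDR 0.0412 and 0.251) and Loxl3 (1.17, FDR 0.0404 and 0.213). Lower were those of Aldh1a1 (-4.53, FDR 0.0135 and 0.0777), Kcnn3 (-3.30, FDR 0.0476 and 0.258), Wnt2 (-3.04, FDR 0.00643 and 0.0786), Spon2 (-3.03, FDR 0.00953 and 0.0856), Steap4 (-2.98, FDR 0.00959 and 0.0707), Ramp2 (-2.90, FDR 0.00321 and 0.0515), Tgfbr3 (-2.07, FDR 0.0427 and 0.241), Dcn (-1.93, FDR 0.0469 and 0.200), Ccl11 (-1.40, FDR 0.0289 and 0.0707) and Pmp22 (-1.25, FDR 0.0350 and 0.156).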

How the results depend on the processing

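The comparison of CD26- CAFs with CD26- NFs gave 872 to 987 genes called higher and 574 to 780 called lower when each mouse was left out in turn. With DESeq2 size factors the counts were 975 and 661, with the DESeq2 Wald test 1253 and 945, with all 6 groups in 1 fit 1098 and 808, with single libraries 1007 and 668, with EN1+ libraries 897 and 525, and with double- libraries 809 and 502. Without the low-count filter 1086 genes were called higher and 1013 lower, so that 51.7% of the calls were higher in place of 59.5%. The difference in response between the CD26 classes was higher in CD26- cells for 182 genes and lower for 116. The DESeq2 Wald test gave 482 and 308, and leaving out 1 mouse gave 27 to 200 and 7 to 137. The lowest pair of counts, 27 and 7, came without control 44/46, and the counts were 76 and 40 without control 82/83, 136 and 55 without control 49/52, 97 and 46 without WB1P #14, 121 and 57 without WB1P #35, and 126 and 74 without WB1P #12 R4. The cause of these moves was not tested.

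The mouse as a block, which pairs the populations of an animal, gave 655 genes higher and 508 lower for the CD26 classes. For the sorts it gave 120 and 160 genes, where the test without the block gave 0 in each direction. The block ended no call of a named gene in the CD26 interaction. The comparison of tumor and control mice was between animals and had no pairs.

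Among results for single genes, 2942 alternative values kept their direction and side of the threshold, 143 lost the call and 19 gained one. A further 36 changed sign, all of 14 genes that had an FDR of 0.05 or more with and without the change, and no called value changed sign. On leaving out each mouse in turn, log2 fold changes ran from -0.81 to 0.92 for C3, -0.22 to 0.03 for Col15a1, -0.19 to 0.02 for Col3a1, -0.16 to 0.03 for Col4a1, -0.12 to 0.07 for Col4a2, -0.03 to 0.19 for Ctsk, -0.02 to 0.74 for Cxcl1, -0.37 to 0.42 for Dpp4, -0.40 to 1.09 for Gbp2, -0.29 to 0.11 for Hspa5, -0.13 to 0.32 for Loxl1, -0.14 to 0.12 for Notch1 and -0.15 to 0.41 for Postn. With double- libraries alone they were 0.28 for C3, 0.09 for Col4a1 and Col4a2, and -0.04 for Notch1, with EN1+ libraries alone -0.36 for Dpp4 and 0.06 for St3gal4, and without the low-count filter -0.01 for Notch1. Interferon-stimulated genes that rose numbered 25, and 16 with all 6 groups in 1 fit. With EN1+ libraries alone, 3 endothelial and 0 adipocyte markers fell, against 7 and 4 in the sums. At this depth the floor of 3 counts over a group was 0.0358 CPM in the control and 0.0275 CPM in the WB1P mice, and fold changes of genes near it are bounds.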
